A study of Mus musculus with 8 samples.

Results

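Transcripts of 8 genes that encode alarmins and antimicrobial peptides were followed in mouse epidermis with and without keratinocyte BMAL1. The genes are S100a8, S100a9, Lcn2, Slpi, Defb1, Defb6, Camp and Tslp, listed by name as a group, and each matched 1 of the 34070 Ensembl identifiers of the count table. RNA came from suspensions of epidermal cells of adult mice aged 18 to 25 weeks, killed at zeitgeber time ZT4 (4 h after lights on). The 4 Bmal1cKO libraries carry K14-Cre;Bmal1flox/flox, in which Cre recombinase driven by the keratin 14 promoter acts on floxed copies of the clock gene Bmal1 in keratinocytes. The 4 Bmal1WT libraries carry K14-Cre;Bmal1wt/wt, so the same Cre is present in both groups and a line without Cre is not part of the comparison. The floxed alleles are removed only in cells that use the keratin 14 promoter or descend from such cells, and resident immune cells keep them.

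Alarmins are molecules that stressed or injured cells make or release to alert the immune system, and antimicrobial peptides are small secreted proteins that kill or starve microbes at the skin surface. Keratinocytes make both kinds, at a low level in calm skin for many of them and at a high level after wounding, infection or interleukin-17. Several of these genes are also strongly used by neutrophils, so levels in skin depend on which cells are present. BMAL1 pairs with CLOCK and binds E-boxes in the promoters of its target genes, and the question of the comparison is which epidermal transcripts differ without it, in a series on BMAL1, YAP and inflammation.

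Total counts ran from 35685261 to 50396156 per library. Arntl, the gene of BMAL1, was at 33.7 ± 3.01 CPM (counts-per-million) in Bmal1cKO and 46.5 ± 3.29 CPM in Bmal1WT (SD, n = 4 each, edgeR adjusted p = 0.0611, and 0.0358 with the replicate block), and the labels do not say which exons were removed. Its target Nr1d1, the gene of the clock repressor REV-ERBα, was at 2.58 ± 0.567 CPM in Bmal1cKO and 118 ± 17.1 CPM in Bmal1WT (edgeR adjusted p = 9.09e-07). Basal keratinocyte markers were abundant, with Krt5 at 9008 CPM in Bmal1cKO and 8112 CPM in Bmal1WT. Of 7 tested basal markers 0 had an edgeR adjusted p under 0.05, with 5 higher and 2 lower by value in Bmal1cKO. The labels give no sex, and Xist with Y-linked genes put replicates 1 and 3 of both groups as female and replicates 2 and 4 as male. Nothing in the labels says that each library is a separate animal, so p-values rest on the variation among libraries, part of which can be technical.

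Of the 8 transcripts, none passed the test between Bmal1cKO and Bmal1WT epidermis. A gene was called at a Benjamini-Hochberg adjusted p under 0.05 in edgeR's quasi-likelihood test, and 34 of 19646 genes tested were called, which is 0.173%, with 17 higher (0.0865%) and 17 lower (0.0865%). Lcn2, Defb1, Defb6 and Tslp had enough reads to enter this test, Lcn2 through its male libraries alone. S100a8, S100a9, Slpi and Camp fell below the count filter, and S100a8, S100a9 and Slpi are given from the same test over every identifier of the table, where 71 genes, or 0.208%, were called. At an unadjusted p under 0.05 stood 0 of the 4 that entered the filtered test, where 1631 of 19646 genes did. In the test over every identifier S100a8 and Slpi did, both lower in Bmal1cKO. Defb1 did as well, higher in Bmal1cKO (log2 fold change 0.25). In that test 2088 of 34070 identifiers, or 6.13%, stood at this level. The median log2 fold change of all genes tested was -0.01.

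**Figure D1:**
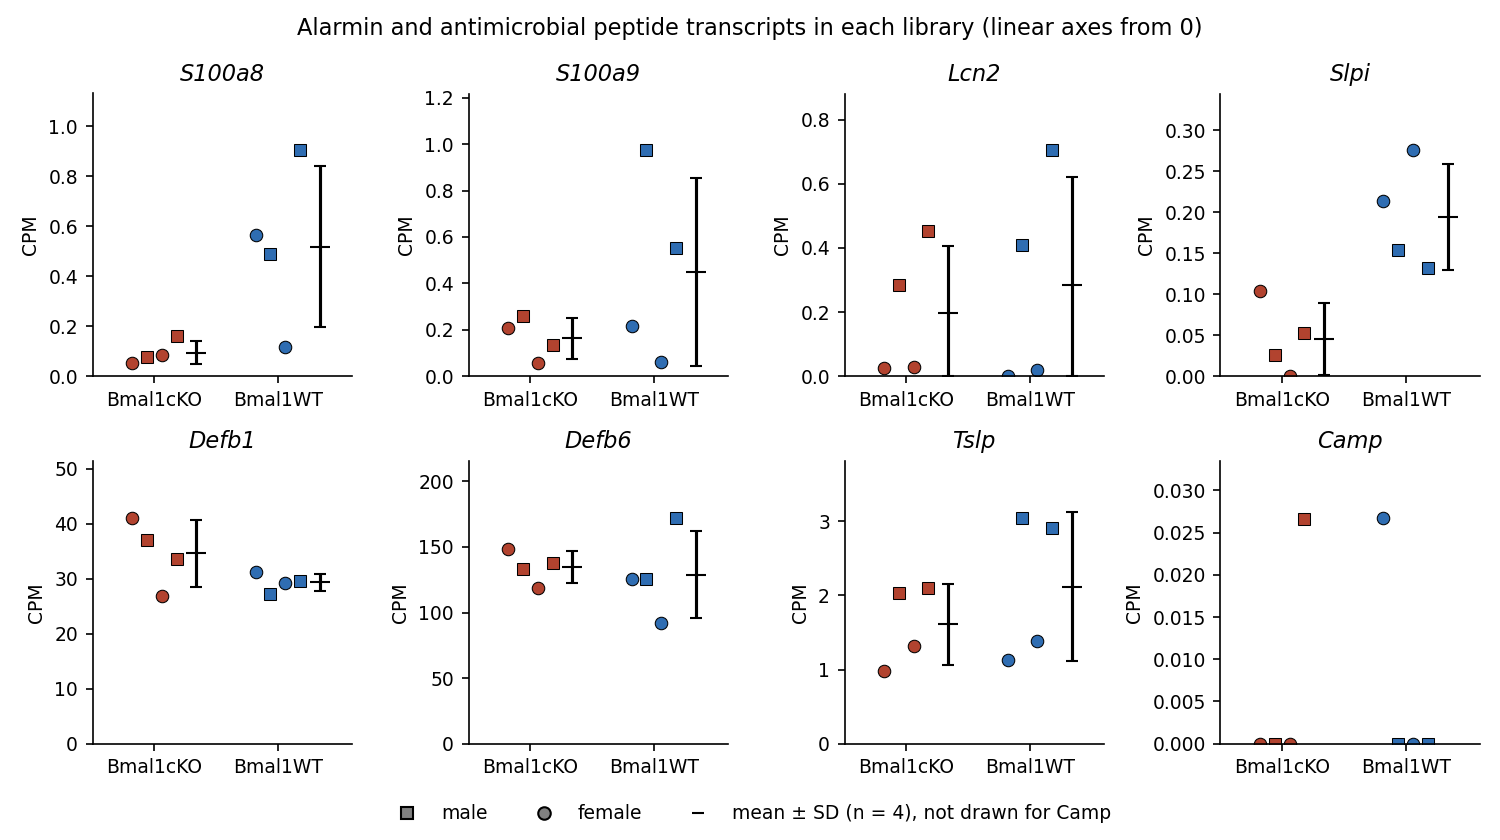
Level of each of the 8 transcripts in CPM (vertical, linear from 0) in the 4 Bmal1cKO libraries (left) and the 4 Bmal1WT libraries (right). Squares are male libraries, circles are female libraries, and the bars give the mean and SD, cut at 0. S100a8 and Slpi lie low in Bmal1cKO at levels of a few reads, and Lcn2 and Tslp separate the male from the female libraries.

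S100A8 and S100A9 are calcium-binding proteins that join as calprotectin, which withholds zinc and manganese from microbes and signals through the receptors TLR4 and RAGE. Their genes are neighbours, S100a8 (ENSMUSG00000056054) on chromosome 3 from 90668978 to 90670035 on the plus strand and S100a9 (ENSMUSG00000056071) from 90692632 to 90695721 on the minus strand of GRCm38, with 22596 bases between them. The 250 bases before the RefSeq start of each, on GRCm38.p6, are shown for this neighbouring pair, whose transcripts were scarce in these libraries. Neither window holds the E-box CACGTG that BMAL1 binds, which is in only 6.02% of such windows. Capitals mark a TATA box (TATAAA) in S100a8, whose first base lies 30 bases before the RefSeq start, and a match to the C/EBP motif TTGCNNAA in S100a9, 236 bases before the start. The annotated S100a8 gene begins further upstream, at 90668978, so the end of its window, with the TATA box, lies inside the annotated gene.
S100a8, chr3:90668821-90669070, plus strand: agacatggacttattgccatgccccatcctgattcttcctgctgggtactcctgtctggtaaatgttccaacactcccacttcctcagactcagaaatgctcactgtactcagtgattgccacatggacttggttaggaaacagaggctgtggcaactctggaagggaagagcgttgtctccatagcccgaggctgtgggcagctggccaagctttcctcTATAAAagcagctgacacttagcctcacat
S100a9, chr3:90695722-90695971, minus strand: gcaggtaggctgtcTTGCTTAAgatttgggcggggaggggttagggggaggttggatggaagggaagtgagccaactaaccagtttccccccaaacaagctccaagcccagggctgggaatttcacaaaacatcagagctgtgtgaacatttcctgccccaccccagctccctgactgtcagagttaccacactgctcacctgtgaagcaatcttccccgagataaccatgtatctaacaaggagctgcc

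S100a8 was read 2, 3, 3 and 6 times in Bmal1cKO replicates 1 to 4, which is 0.0517, 0.0773, 0.0842 and 0.160 CPM. In Bmal1WT replicates 1 to 4 it was read 21, 19, 6 and 41 times, which is 0.563, 0.487, 0.118 and 0.904 CPM. The Bmal1cKO libraries are all low, at 2 to 6 reads, 3 of the 4 Bmal1WT libraries lie above every one of them, and the groups overlap through Bmal1WT replicate 3. The mean was 0.0932 ± 0.0465 CPM in Bmal1cKO and 0.518 ± 0.322 CPM in Bmal1WT (SD, n = 4 each), a log2 fold change of -2.43 ± 0.59 (SE) with a 95% interval of -3.69 to -1.16. The edgeR p was 0.0011 and the adjusted p over all identifiers 0.190, so the difference was not called. With the replicate number as a block the edgeR value was -2.38 and the adjusted p 0.00282, in a fit that called 760 genes without the filter. With sex as a covariate it was -2.41 ± 0.45, with an edgeR adjusted p of 8.73e-06 in a fit that called 1246 genes. The unadjusted edgeR p of that fit, 8.81e-08, is that of a normal distribution, as if the number of libraries were unlimited. It therefore overstates the certainty that 8 libraries give. With the count filter the fit with the replicate block called 152 genes and the fit with sex as a covariate 119. Without Bmal1WT replicate 3, the Bmal1WT library with the lowest S100a8, the edgeR adjusted p was 0.0210 and the log2 fold change -2.77. Over 16 alternatives the fold change ran from -2.81 to -1.99, always lower in Bmal1cKO, and it was called in 5 of them.

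S100a9 was read 8, 10, 2 and 5 times in Bmal1cKO replicates 1 to 4, against 8, 38, 3 and 25 times in Bmal1WT replicates 1 to 4. The groups overlap, and the gap in values is in the male libraries: Bmal1WT replicates 2 and 4 were at 0.974 and 0.551 CPM, above Bmal1cKO replicates 2 and 4 at 0.258 and 0.133 CPM. The female libraries held 0.207 and 0.0561 CPM in Bmal1cKO and 0.214 and 0.0592 CPM in Bmal1WT, nearly the same pairs of values. The log2 fold change was -1.41 ± 0.68 (edgeR adjusted p = 0.772), and it was -0.72 without Bmal1WT replicate 2 and 0.05 in the female libraries alone. The difference of the effect between the sexes was -1.995 ± 0.91 and was not called (edgeR adjusted p = 0.549).

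Set against each other, S100a8 took 14 of 39 reads of the pair in Bmal1cKO, or 35.9% (exact 95% interval 21.2 to 52.8%), and 87 of 161 in Bmal1WT, or 54.0% (46.0 to 61.9%). By library the share was 20%, 23.1%, 60% and 54.5% in Bmal1cKO and 72.4%, 33.3%, 66.7% and 62.1% in Bmal1WT. The shares of the libraries overlap, and no test was made of them. Intervals on reads cover counting error only, since the reads carry no molecular identifiers. Pooled over each group, the ratio of Bmal1cKO to Bmal1WT was 0.184 (95% counting interval 0.0966 to 0.326) for S100a8 and 0.386 (0.235 to 0.615) for S100a9. The spread of reads among the libraries of a group, as chi-square divided by its degrees of freedom, was 0.880 for S100a8 and 1.73 for S100a9 in Bmal1cKO, against 9.87 and 16.3 in Bmal1WT. Counting error alone gives about 1, so the Bmal1WT libraries varied by more than that. At the few reads of the Bmal1cKO libraries a similar relative spread would hardly show, so these values do not compare the groups in spread.

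Some markers of neutrophils, the cells that hold most calprotectin in blood, were at or near 0 in every library. Ly6g had 1 read in all 8 libraries together, Ltf had 2, and Csf3r had at most 2 in any library, while Mpo had at most 3 and Elane at most 2. Others were not, with Mmp9 at 7.21 CPM in Bmal1cKO and 5.67 CPM in Bmal1WT, and Itgam at 3.59 and 3.79 CPM. The list therefore does not settle whether neutrophils were present. Of 15 markers 11 were matched and 3 tested, 0 were called, and 5 had fewer than 10 reads in total. The summed list was at 71.8 to 139 CPM in Bmal1cKO and 60.8 to 97.7 CPM in Bmal1WT, mostly from Il1r2, a decoy interleukin-1 receptor that is not restricted to neutrophils. In Bmal1WT replicate 2, which had the most S100a9, the chemokine receptor gene Cxcr2 had 65 reads (1.67 CPM) and the cornified envelope gene Sprr1b had 224 (5.74 CPM), both far above the other Bmal1WT libraries. Bmal1WT replicate 4, with the most S100a8, also had the most reads of the fibroblast gene Col3a1, 359. The summed fibroblast list was at 71.9 to 105 CPM in Bmal1cKO and 50.5 to 113 CPM in Bmal1WT, mostly from Sparc. Sparc was at 84.3 CPM in Bmal1cKO and 57.6 CPM in Bmal1WT (log2 fold change 0.55). Of 6 tested fibroblast genes 1 was higher and 5 lower by value, with a median of -0.95, and 0 were called. Without Bmal1WT replicate 4 the log2 fold change of S100a8 was -1.99. Markers of differentiated keratinocytes were lower by value in Bmal1cKO in 10 of 10 cases, none called except the filaggrin gene Flg with sex as a covariate (edgeR adjusted p = 0.0386, against 0.103 without it and 0.0633 with the replicate block), with a summed level of 14580 to 21469 CPM in Bmal1cKO and 19512 to 29046 CPM in Bmal1WT. Their part in the S100a8 and S100a9 values was not tested. Between the genotypes 0 genes were called among the tested markers of macrophages (8), Langerhans cells (9), T cells (8), mast cells, basophils and eosinophils (2), hair follicles and sebaceous glands (10) and melanocytes (4), and with the replicate block the T cell gene Thy1 was (0.56, edgeR adjusted p = 0.0226). In bulk RNA, fewer cells of a type and less RNA per cell cannot be told apart.

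SLPI, the secretory leukocyte protease inhibitor, blocks serine proteases such as neutrophil elastase and also kills bacteria. Slpi (ENSMUSG00000017002) lies on chromosome 2 from 164354070 to 164389095 on the minus strand, where it shares exon sequence with Mir7678, a microRNA gene on the same strand with 5 counts in the table. It is the only one of the 6 promoter windows of the 8 genes with the E-box CACGTG, shown in capitals 146 bases before the RefSeq start at chr2:164356648-164356653. The annotated gene begins further upstream, at 164389095, so this window lies inside the annotated gene. Capitals also mark TTGAGCAA, the C/EBP motif read on the other strand, 241 bases before the start.
Slpi, chr2:164356508-164356757, minus strand: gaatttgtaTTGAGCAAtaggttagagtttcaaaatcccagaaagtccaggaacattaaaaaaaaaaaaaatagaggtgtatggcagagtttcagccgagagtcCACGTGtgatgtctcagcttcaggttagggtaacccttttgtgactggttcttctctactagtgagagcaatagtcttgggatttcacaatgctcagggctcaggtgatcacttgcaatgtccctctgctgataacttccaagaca

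Slpi was read 4, 1, 0 and 2 times in Bmal1cKO replicates 1 to 4, which is 0.103, 0.0258, 0 and 0.0532 CPM. In Bmal1WT replicates 1 to 4 it was read 8, 6, 14 and 6 times, which is 0.214, 0.154, 0.276 and 0.132 CPM. All 4 Bmal1cKO libraries lie below all 4 Bmal1WT libraries, a pattern shared by 589 of the 34070 identifiers, or 1.73%. The mean was 0.0456 ± 0.0443 CPM in Bmal1cKO and 0.194 ± 0.0647 CPM in Bmal1WT (SD, n = 4 each), and the log2 fold change was -2.003 ± 0.65 (95% interval -3.41 to -0.60). The edgeR p was 0.00862 and the adjusted p 0.483, so it was not called, nor was it in any of the alternatives that gave an adjusted p, which ran from 0.106 to 0.872. The pooled reads were 7 in Bmal1cKO and 34 in Bmal1WT, a ratio of 0.235 (counting interval 0.0881 to 0.540). A count of 3 reads corresponds to 0.0592 to 0.0842 CPM at these depths, above 3 of the 4 Bmal1cKO values and below all 4 Bmal1WT values.

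The E-box is present in 1978 of 32851 RefSeq promoter windows of 250 bases, or 6.02%, so 1 window among 6 is a description of the sequence and not of binding. The other motifs were searched on both strands as well, and no match overlapped another. AGGTCA, a hexamer bound by REV-ERB and ROR proteins, is in 14.0% of windows and TTATGTAA, the D-box bound by DBP and NFIL3, in 0.819%, and neither was found in the 6. TTGCNNAA, bound by C/EBP proteins, is in 9.56% of windows and was found in S100a9, Slpi, Lcn2 and Defb6, and TATAAA is in 12.4%. In Lcn2 the match is TTGCTCAA, 216 bases before the RefSeq start and inside the annotated gene, which begins further upstream. The Camp window, which lies partly inside the annotated gene, held none of the 5 motifs, and a window was not at hand for Defb1 or Tslp.

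Among proteases and protease inhibitors of the epidermis, 10 of 16 genes were tested and 0 called, with 3 higher and 7 lower by value and a median log2 fold change of -0.17. Klk7, a kallikrein that cleaves corneodesmosomes during shedding, was at 86.2 ± 28.9 CPM in Bmal1cKO and 163 ± 38.0 CPM in Bmal1WT (-0.92, edgeR adjusted p = 0.295). Klk6, a related kallikrein, was at 1.19 ± 0.366 CPM in Bmal1cKO and 2.99 ± 1.86 CPM in Bmal1WT (-1.33, adjusted p = 0.454). Cst3, the cysteine protease inhibitor cystatin C, was at 289 ± 22.3 CPM in Bmal1cKO and 263 ± 11.2 CPM in Bmal1WT (0.13, adjusted p = 0.640). Elane, the neutrophil elastase gene whose product SLPI blocks, had 3 reads in Bmal1cKO and 1 in Bmal1WT.

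LCN2, lipocalin 2, binds bacterial siderophores and so keeps iron from microbes. Lcn2 (ENSMUSG00000026822) lies on chromosome 2 from 32384633 to 32388252 on the minus strand. It was read 1, 11, 1 and 17 times in Bmal1cKO replicates 1 to 4, against 0, 16, 1 and 32 times in Bmal1WT replicates 1 to 4. The genotypes overlap fully, and in both of them the male replicates 2 and 4 are high and the female replicates 1 and 3 at 0 or 1 read. The mean was 0.197 ± 0.209 CPM in Bmal1cKO and 0.284 ± 0.339 CPM in Bmal1WT, with a log2 fold change of -0.51 ± 1.09 (95% interval -2.96 to 1.93, edgeR adjusted p = 0.955). The value was 0.53 without Bmal1WT replicate 4, a male library, in a fit that then holds the sexes unequally and has no sex term. It was 0.23 in limma voom with every library kept. With sex as a covariate it was -0.46, and in the male libraries alone -0.61.

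Defb1 and Defb6 encode beta-defensins, cationic peptides that break bacterial membranes, and both were well measured. Defb6 (ENSMUSG00000050756) lies on chromosome 8 from 19225478 to 19228209 and Defb1 (ENSMUSG00000044748) from 21776599 to 21795185, both on the plus strand, 2548389 bases apart. The Defb6 window is shown as that of the most abundant of the 8 transcripts. Capitals mark its C/EBP matches, 209 and 166 bases before the start, and it holds no E-box.
Defb6, chr8:19225228-19225477, plus strand: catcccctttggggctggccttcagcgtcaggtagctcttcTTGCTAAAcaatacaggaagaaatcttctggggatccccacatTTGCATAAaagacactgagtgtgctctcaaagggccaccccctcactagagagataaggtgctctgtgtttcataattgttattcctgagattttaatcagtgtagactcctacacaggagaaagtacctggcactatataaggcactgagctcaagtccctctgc

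Defb6 was at 148, 134, 119 and 138 CPM in Bmal1cKO replicates 1 to 4, from 5743, 5186, 4240 and 5175 reads. In Bmal1WT replicates 1 to 4 it was at 126, 125, 92.2 and 172 CPM, from 4686, 4892, 4674 and 7819 reads. Bmal1WT holds both the lowest and the highest library, and the Bmal1cKO libraries lie between them. The means were 135 ± 12.2 CPM in Bmal1cKO and 129 ± 33.0 CPM in Bmal1WT (log2 fold change 0.06 ± 0.16, edgeR adjusted p = 0.964). The 95% interval of the ratio of Bmal1cKO to Bmal1WT is 0.815 to 1.34, so a change by more than these factors lies outside it.

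Defb1 was at 41.1, 37.0, 26.8 and 33.7 CPM in Bmal1cKO replicates 1 to 4, from 954 to 1591 reads. In Bmal1WT replicates 1 to 4 it was at 31.2, 27.2, 29.2 and 29.6 CPM, from 1062 to 1483 reads. Bmal1cKO replicates 1, 2 and 4 lie above every Bmal1WT library, and Bmal1cKO replicate 3 lies below them all. The means were 34.6 ± 6.07 CPM in Bmal1cKO and 29.3 ± 1.63 CPM in Bmal1WT, a log2 fold change of 0.24 ± 0.12 that was not called (edgeR adjusted p = 0.634). It was positive under all 18 alternatives, from 0.15 to 0.35, with a 95% interval of the ratio from 0.986 to 1.42. Without Bmal1cKO replicate 1 it was 0.15.

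TSLP, thymic stromal lymphopoietin, is an epithelial cytokine that acts on dendritic cells, innate lymphoid cells and other immune cells through a receptor made of CRLF2 and the interleukin-7 receptor. Tslp (ENSMUSG00000024379) lies on chromosome 18 from 32815383 to 32819797 on the plus strand. It was at 0.983, 2.03, 1.32 and 2.10 CPM in Bmal1cKO replicates 1 to 4, against 1.13, 3.05, 1.38 and 2.91 CPM in Bmal1WT replicates 1 to 4. The genotypes overlap, and within each group the male replicates 2 and 4 are the high ones. Each Bmal1cKO library was below the Bmal1WT library of the same number, by little in the female and by more in the male libraries. The labels do not state that equal numbers are pairs. The female Bmal1cKO replicate 3 was above the female Bmal1WT replicate 1. The means were 1.61 ± 0.548 CPM in Bmal1cKO and 2.12 ± 1.01 CPM in Bmal1WT (log2 fold change -0.39 ± 0.37, edgeR adjusted p = 0.864). The value was negative under all 18 alternatives, from -0.60 to -0.13, and was called in none.

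CAMP, the cathelicidin precursor, gives rise to the peptide CRAMP in mice. Camp (ENSMUSG00000038357) lies on chromosome 9 from 109847379 to 109849617 on the minus strand. It had 1 read in Bmal1cKO replicate 4, 1 read in Bmal1WT replicate 1 and none in the other 6 libraries, which is under the limit of 3 counts for a count of 0, so no difference was detectable at this depth.

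**Figure D2:**
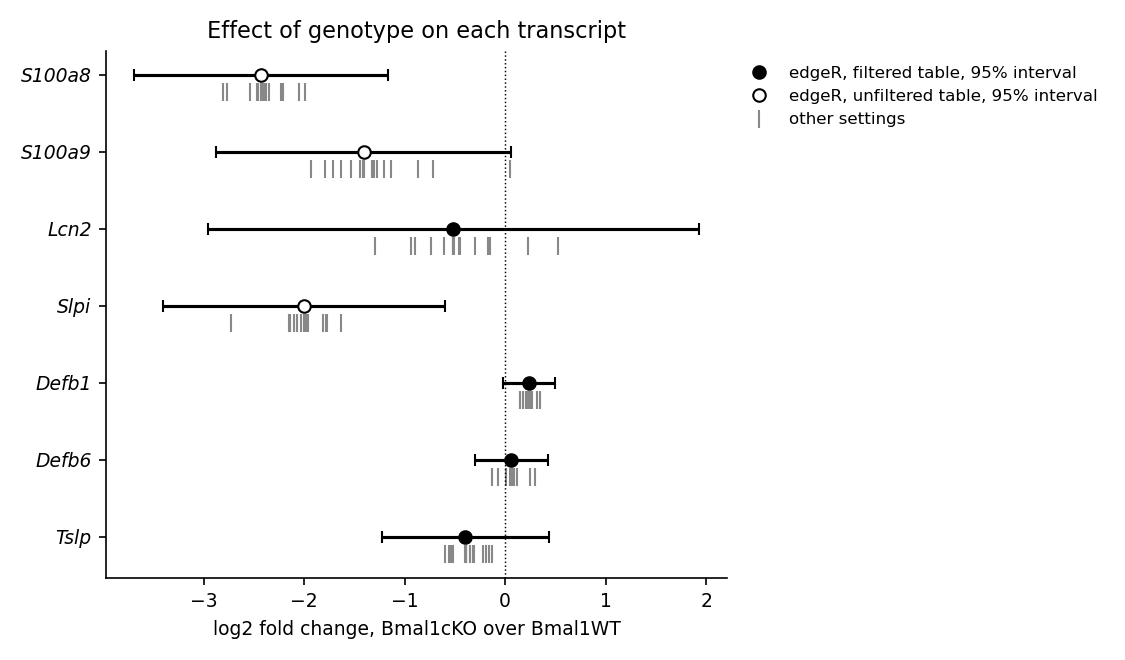
Log2 fold change of Bmal1cKO over Bmal1WT (horizontal) for 7 of the 8 transcripts, without Camp, which had 1 read in each group. Filled circles are from the filtered table and open circles from the unfiltered one, with 95% intervals; grey ticks give the value under each alternative. The intervals of S100a8 and Slpi lie below 0, those of Defb1 and Defb6 are narrow and include 0, and that of Lcn2 spans from -2.96 to 1.93.

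Divided by exon length, Defb6 led with a mean over the 8 libraries of 408 CPM per kb (lowest library 285, highest 534), followed by Defb1 at 36.7 (30.7 to 47.2). Tslp followed at 1.40 CPM per kb (0.738 to 2.29), S100a9 at 0.587 (0.108 to 1.87) and S100a8 at 0.440 (0.0745 to 1.30). Slpi was at 0.102 (0 to 0.234), Lcn2 at 0.0918 (0 to 0.269) and Camp at 0.00881 (0 to 0.0353). The ranges of Defb6 and Defb1 are apart from each other and from the rest, while from Tslp down to Camp every pair of neighbours in this order has overlapping ranges. In Bmal1cKO libraries alone S100a8 was at 0.134 CPM per kb and S100a9 at 0.313, and in Bmal1WT libraries they were at 0.747 and 0.862. On the same scale the annexin gene Anxa1 was at 286 CPM per kb, and 2 other S100 genes of keratinocytes, S100a11 and S100a14, at 795 and 192.5.

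**Figure D3:**
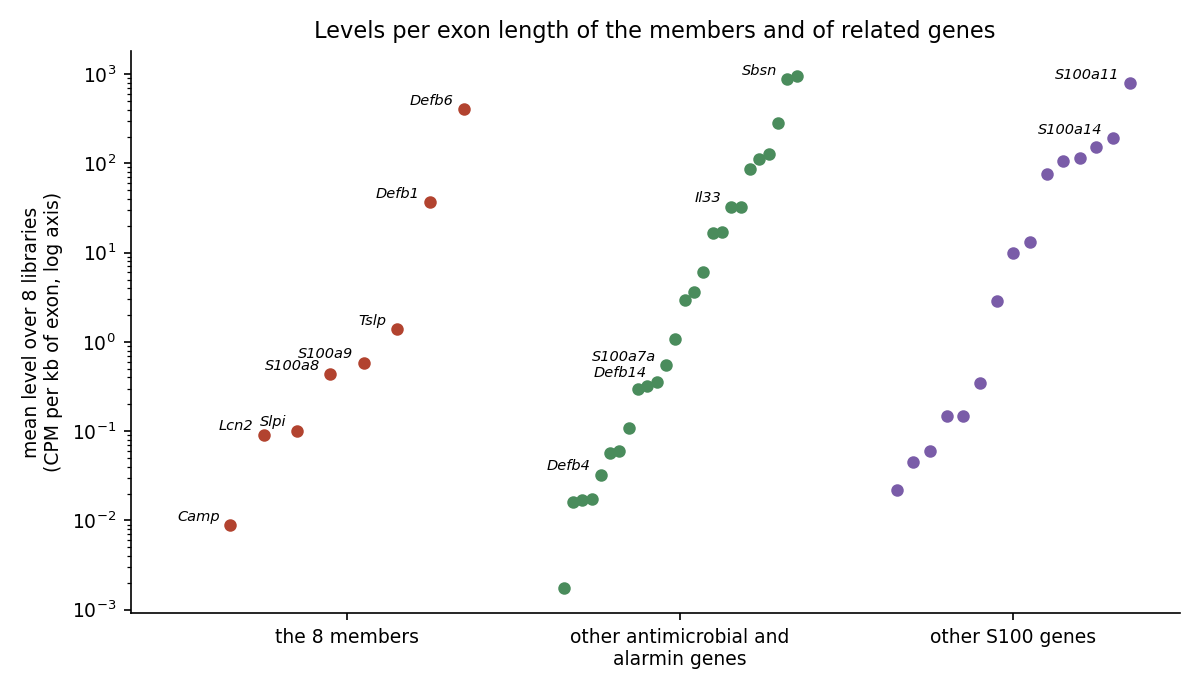
Mean level over the 8 libraries in CPM per kb of exon (vertical, log axis) for the 8 transcripts, for other antimicrobial and alarmin genes, and for other S100 genes, each ordered by level within its group. Defb6 stands at 408 and Defb1 at 36.7, within the range of the abundant genes of the other groups, and the remaining 6 lie at 1.40 or below.

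Among 26 other antimicrobial and alarmin genes of the epidermis in the table, 17 were tested and 0 called, with 3 higher and 14 lower by value and a median log2 fold change of -0.14, against -0.01 over all genes tested. S100a7a, the mouse relative of psoriasin, was at 0.569 ± 0.0706 CPM in Bmal1cKO and 0.959 ± 0.116 CPM in Bmal1WT (-0.75 ± 0.19, edgeR adjusted p = 0.256). Its 21, 26, 18 and 21 reads in Bmal1cKO gave levels below each of the Bmal1WT libraries, which held 34, 32, 52 and 49 reads, and 493 of 19646 genes tested, or 2.51%, lay apart in this direction. Wfdc5, which carries the same kind of WAP domain as SLPI, was at 11.04 ± 3.84 CPM in Bmal1cKO and 16.8 ± 3.19 CPM in Bmal1WT (-0.60, adjusted p = 0.557). Csta1, a cysteine protease inhibitor of the cystatin A family, was at 8.29 ± 1.48 CPM in Bmal1cKO and 11.8 ± 4.13 CPM in Bmal1WT (-0.51, adjusted p = 0.609). The further beta-defensin genes Defb4 and Defb14 had 2 and 13 reads in Bmal1cKO, against 3 and 11 in Bmal1WT.

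Of 15 other S100 genes 10 were tested and 0 called, with 2 higher and 8 lower by value and a median of -0.06. S100a3, a cysteine-rich S100 protein of hair cuticle, was at 0.552 ± 0.191 CPM in Bmal1cKO and 1.14 ± 1.29 CPM in Bmal1WT (-1.05, edgeR adjusted p = 0.744). S100a6 was at 148 ± 5.34 CPM in Bmal1cKO and 168 ± 34.6 CPM in Bmal1WT (-0.19, adjusted p = 0.767), and S100a4 at 40.9 ± 6.66 CPM in Bmal1cKO and 47.4 ± 12.8 CPM in Bmal1WT (-0.21, adjusted p = 0.844). The fold changes of the 10 tested ran from -1.05 to 0.06, against -2.43 for S100a8.

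Among 14 genes of receptors and partners of these proteins, 13 were tested and 0 called, with 10 higher and 3 lower by value and a median of 0.12. Plscr4, a phospholipid scramblase of the family that binds SLPI in human cells, was at 21.3 ± 2.00 CPM in Bmal1cKO and 28.0 ± 5.12 CPM in Bmal1WT (-0.40, edgeR adjusted p = 0.404). Plscr1, of the same family, was at 0.567 ± 0.138 CPM in Bmal1cKO and 0.893 ± 0.275 CPM in Bmal1WT (-0.66, adjusted p = 0.567). Grn encodes progranulin, which SLPI shields from cleavage by elastase, and was at 76.5 ± 4.53 CPM in Bmal1cKO and 68.6 ± 2.88 CPM in Bmal1WT (0.16, adjusted p = 0.473). The TSLP receptor gene Crlf2 was at 3.50 ± 0.723 CPM in Bmal1cKO and 3.22 ± 0.744 CPM in Bmal1WT, and the calprotectin receptor gene Tlr4 at 0.552 ± 0.158 CPM in Bmal1cKO and 0.410 ± 0.161 CPM in Bmal1WT.

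All 29 matched genes upstream of these 8, the receptors and transcription factors that control alarmin and defensin genes, were tested, and 0 were called, with 14 higher and 15 lower by value. Nod2, a sensor of bacterial peptidoglycan, was at 22.2 ± 3.07 CPM in Bmal1cKO and 15.9 ± 1.83 CPM in Bmal1WT (0.48 ± 0.12, edgeR adjusted p = 0.232, 0.0570 with the replicate block and 0.0386 with sex as a covariate). F2rl1, the protease-activated receptor PAR2, was at 126 ± 6.36 CPM in Bmal1cKO and 113 ± 9.36 CPM in Bmal1WT (0.15, adjusted p = 0.600). Stat3, a transcription factor of the interleukin-22 response, was at 214 ± 15.2 CPM in Bmal1cKO and 196 ± 6.11 CPM in Bmal1WT (0.12, adjusted p = 0.634). The interleukin-17 receptor genes stayed close in value, with Il17ra at 28.3 ± 2.01 CPM in Bmal1cKO and 29.7 ± 2.21 CPM in Bmal1WT.

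Of 12 stress keratin and keratinocyte cytokine genes 9 were tested and 0 called, with 5 higher and 4 lower by value and a median of 0.03. Il23a, a subunit of interleukin-23, was at 0.992 ± 0.206 CPM in Bmal1cKO and 0.540 ± 0.137 CPM in Bmal1WT (0.86 ± 0.25, edgeR adjusted p = 0.368). Ccl20, a chemokine for cells with the receptor CCR6, was at 2.64, 2.19, 3.20 and 2.61 CPM in Bmal1cKO replicates 1 to 4, against 0.777, 0.872, 1.72 and 0.728 CPM in Bmal1WT (1.36, adjusted p = 0.141, 0.0334 with the replicate block and 0.0499 with sex as a covariate). The Ccl20 values of the groups do not overlap, a pattern that 519 of the genes tested, or 2.64%, showed in this direction. Sprr1b was at 0.566 ± 0.282 CPM in Bmal1cKO and 1.88 ± 2.59 CPM in Bmal1WT (-1.72, adjusted p = 0.651). Krt6a and Krt16, keratins of wounded and psoriatic skin, were at 622 ± 19.8 and 524 ± 59.1 CPM in Bmal1cKO, against 625 ± 64.1 and 485 ± 86.8 CPM in Bmal1WT.

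**Figure D4:**
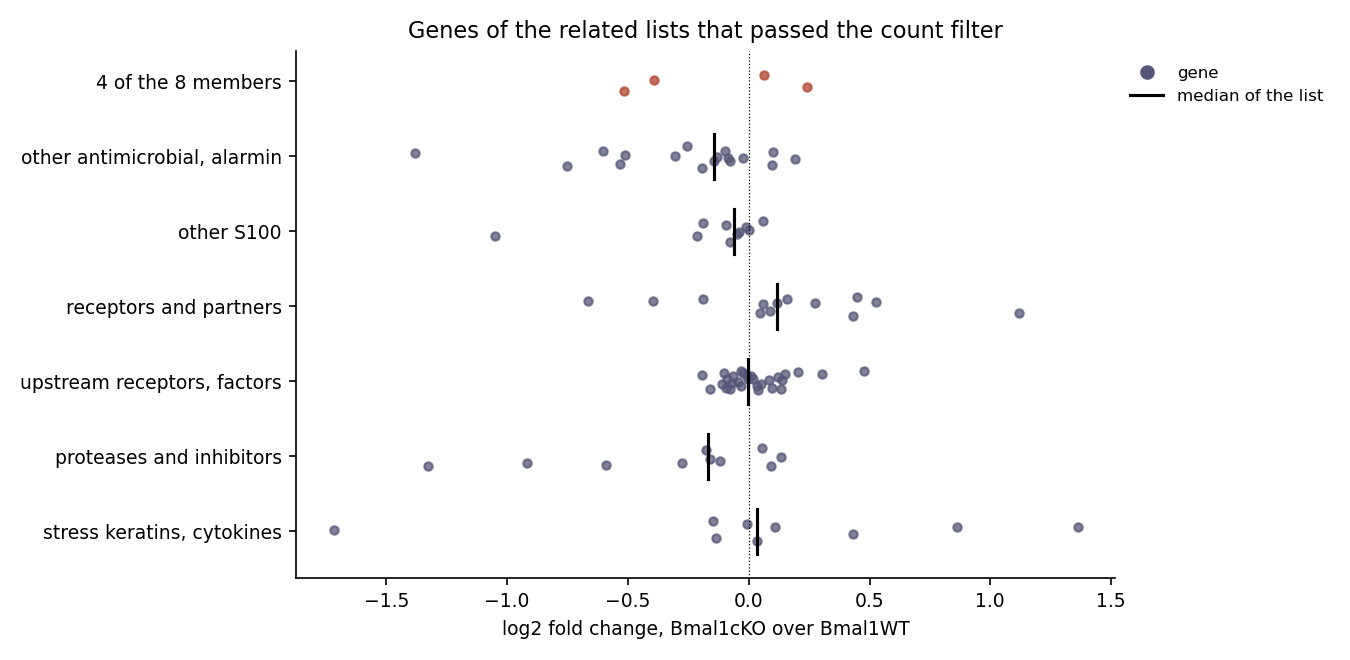
Log2 fold change of Bmal1cKO over Bmal1WT (horizontal) of the genes that passed the count filter, by list, with each list's median as a bar and vertical scatter only for display. The 17 other antimicrobial and alarmin genes have their median at -0.14 and the 13 receptors and partners at 0.12, and 0 genes in the lists shown were called.

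Sex divided Lcn2 and Tslp more than genotype did by value. This comparison of male with female libraries, 4 of each, was added after the values had been seen, with genotype kept in the model, and it called 361 of 19646 genes, or 1.84%, of which 129 (0.657%) were higher in males. Lcn2 had 76 reads in the male and 3 in the female libraries, a ratio of 25.6 (counting interval 8.43 to 127). The edgeR log2 fold change of male over female was 4.45 ± 0.55 (adjusted p = 0.00861), and it was called in all 12 alternatives run, with an adjusted p of at most 0.0433. Lcn2 passed the count filter only through the male libraries, at 11 to 32 reads each against 0 or 1 in each female library. Its call after the filter therefore rests on a gene admitted by the sex in which it is high. Tslp was at 2.52 ± 0.531 CPM in male and 1.20 ± 0.182 CPM in female libraries (SD, n = 4 each), with 409 and 197 reads (1.05 ± 0.17, edgeR adjusted p = 0.0231). The call of Tslp was lost without Bmal1cKO replicate 2 (edgeR adjusted p = 0.0557) and without Bmal1WT replicate 1 (0.0902), 2 (0.0702), 3 (0.0638) or 4 (0.0690), while its log2 fold change stayed between 0.96 and 1.18. All male values of Lcn2 and of Tslp lie above all female ones, which 944 of the genes tested, or 4.81%, did in this direction and 987, or 5.02%, in the other.

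Defb1 did not separate by sex, at 31.9 ± 4.31 CPM in male and 32.1 ± 6.30 CPM in female libraries (edgeR adjusted p = 0.965), and Defb6 was not called either, at 142 ± 20.7 CPM in male and 121 ± 23.2 CPM in female libraries (adjusted p = 0.429). S100a8 had 69 reads in male and 32 in female libraries, S100a9 had 78 and 21, and Slpi had 15 and 26, each with overlapping sexes. In the edgeR fit without the filter, which called 2233 identifiers, or 6.55%, S100a9 was called higher in males (1.73 ± 0.43, adjusted p = 0.00195), and S100a8 (1.03 ± 0.43, adjusted p = 0.167) and Slpi (-0.67 ± 0.67, adjusted p = 0.807) were not. The p-values of that fit are those of a normal distribution, as if the number of libraries were unlimited. They therefore overstate the certainty that 8 libraries give. None of the genotype effects was called as different between the sexes, in a test that called 1 of 19646 genes (0.00509%). The adjusted p of that difference in edgeR was 0.826 for Lcn2, 0.813 for Tslp, 0.762 for Defb6 and 0.923 for Defb1, with 1304 genes at an unadjusted p under 0.05.

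Other genes moved with sex as well. Of 9 tested Langerhans cell markers 5 were called lower in males, as were 232 of 19646 genes, or 1.18%, with a summed level of 747 to 955 CPM in male and 1101 to 1177 CPM in female libraries. Among macrophage and monocyte markers Csf1r (edgeR adjusted p = 0.0143) and Adgre1 (0.0349) were called lower and Ly6c2 (0.0281) higher in males, and Mmp9 of the neutrophil list lower (0.0406). Krt1, a keratin of suprabasal keratinocytes, was called higher in males (1.21, edgeR adjusted p = 0.0197), and Il4ra, a receptor subunit of interleukin-4 from the upstream list, lower (-0.68, adjusted p = 0.0164). Their part in the Lcn2 and Tslp values was not tested. Of the partner genes, Cd36, a scavenger receptor for fatty acids carried by calprotectin, had 1171 reads in male and 227 in female libraries (2.37, adjusted p = 0.00861). Lrp2, the gene of megalin, a receptor that takes up LCN2 in the kidney, had 32 and 25 reads in Bmal1cKO replicates 2 and 4, 7 and 21 reads in Bmal1WT replicates 2 and 4, and none in any female library. It was at least 28.6-fold higher in males against a floor of 3 counts over the female libraries, lay below the count filter, and was picked out after its values were seen.

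The genes with the pattern most like that of a member over the 8 libraries were found by the root mean square difference of centred log2(CPM + 0.1) values, for the 3 transcripts with a mean of at least 1 CPM. For Defb6, whose own SD over libraries was 0.26 on this scale, they were Gm7781 (0.077), Fst (0.078), which encodes the activin-binding protein follistatin, and Inhbb (0.082), which encodes an activin subunit. For Defb1, with an SD of 0.22, they were Gm16415 (0.075), Ulk4 (0.077) and Gm7979 (0.080). For Tslp, with an SD of 0.58, they were Kif26b (0.148), Medag (0.201) and Ehf (0.207), the last the gene of an epithelial ETS factor.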

How the data were processed

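Poly(A) RNA of epidermal cell suspensions was made into stranded TruSeq libraries and sequenced as single reads of 51 bases, per the labels' protocols. The authors deposited raw gene counts as whole numbers, with no normalisation. The submitters' processing notes name Trim Galore, STAR 2.7.10a, featureCounts and the build GRCm38 (mm10). Neither the annotation release nor the strand setting is given in the sources used, so overlapping genes are uncertain.

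Symbols came from GENCODE M21 on GRCm38 for 33974 of 34070 identifiers, and promoter windows from RefSeq on GRCm38.p6. Counts were scaled by TMM and tested in edgeR 4.0.16 (R 4.3.3) with glmQLFit and glmQLFTest, two-sided, on genotype alone, after filterByExpr (minimum count 10, minimum total 15). Benjamini-Hochberg adjustment ran over every gene of a fit. Genes below the filter were taken from the same fit without the filter. The fits were tested on simulated counts. CPM use TMM-scaled library sizes, exon length is the union of annotated exons, and intervals on reads are exact at 95%.

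The deviations of same-numbered libraries from their groups' means correlated across genes at 0.33, 0.49, 0.39 and 0.37, each over the minimum of 0.1. Libraries of the same sex but different number also passed it. Bmal1cKO 1 with Bmal1WT 3 was at 0.14, 3 with 1 at 0.35, 2 with 4 at 0.17 and 4 with 2 at 0.16. Pairing by number and shared sex therefore cannot be told apart by this rule. No library pair within a group agreed within sampling noise. Alternatives were the replicate block, sex as a covariate, DESeq2 1.42.0, limma voom 3.58.1, other scalings and filters, each sex alone and each library left out. The 8 genes, the gene lists and the tests were chosen with earlier results of these data known. Genes named besides the 8 are, per list, those called or else the 3 with the smallest p. Other genes named, such as receptors, abundant relatives and cell markers, fall outside this rule and were picked after their values were seen.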

Additional observations from a re-analysis of the deposited data

Results flagged for a closer look

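Of 146 groups of 4 libraries, over 73 genes, 11 held a library far from the other 3 by Dixon's criterion. Chance alone gives about 1 in 20, a rate that does not hold for genes with a lone read. None of the 8 alarmin and antimicrobial peptide transcripts is among the 11. For Camp this says nothing, since its 1 read in 1 library of each group has the same form as Ly6g and Elane in Bmal1WT. In Bmal1cKO, replicate 4 stood apart for the collagen genes Col1a1 (3.70 CPM) and Col3a1 (2.66 CPM). In Bmal1WT, replicate 2 stood apart for Cxcr2 (1.67 CPM), Sprr1b (5.74 CPM), the suprabasal keratin gene Krt10 (13733 CPM) and Ly6g (0.0256 CPM, 1 read). In the same group Ccl20 (1.72 CPM) and Elane (0.0197 CPM, 1 read) were highest in replicate 3. Also in Bmal1WT, 1 library stood apart for S100a3 (3.07 CPM), for the cornified envelope gene Lor (496 CPM) and for the fibroblast gene Dcn (5.29 CPM).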

How the results depend on the processing

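The number of genes called between Bmal1cKO and Bmal1WT was 34, and it was 152 with the replicate block (102 higher, 50 lower), 119 with sex as a covariate (81 higher, 38 lower), 246 with DESeq2 (164 higher, 82 lower), 71 without the filter (45 higher, 26 lower), 13 in female libraries alone (4 higher, 9 lower) and 101 in male libraries alone (77 higher, 24 lower). Leaving out 1 library gave 23 to 32. DESeq2 called 1 of the 8 transcripts, S100a8 (-2.47, adjusted p = 0.0456). Without the filter S100a8 was also called with the replicate block (-2.38, 760 genes called) and with sex as a covariate (-2.41, 1246 genes called). It was called there too in male libraries alone (-2.54, edgeR adjusted p = 0.0174, 641 genes called) and without Bmal1WT replicate 3 (-2.77, 72 genes called). Leaving out 1 library gave S100a8 values of -2.81 to -1.99. The replicate block changed no other call among the 8. Signs turned for Lcn2 with limma voom (0.23) and without Bmal1WT replicate 4 (0.53), where leaving out 1 library gave -1.29 to 0.53. They turned for Defb6 in male libraries alone (-0.13) and without Bmal1WT replicate 3 (-0.068), with values up to 0.24 when another library was left out, and for S100a9 in female libraries alone (0.0499). The cause was not tested. Lcn2 could not be tested at a minimum of 1 CPM in 4 libraries or in female libraries alone, and DESeq2 gave Slpi no adjusted p. In the male against female comparison, Defb6 was called without the filter (0.24, edgeR adjusted p = 0.00764), in a fit that called 2233 genes. Its SE was 0.068 in that fit, against 0.14 with the filter, where it was not called. Leaving out 1 library gave -0.14 to 0.10 for Defb1 (0.02 without Bmal1WT replicate 1, 0.03 without Bmal1WT replicate 2, 0.10 without Bmal1cKO replicate 1 and 0.0033 without Bmal1cKO replicate 4) and 0.96 to 1.18 for Tslp. Depth limits S100a8, S100a9, Slpi, Lcn2 and Camp, whose libraries hold from 0 to 41 reads each.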
